A study of Mus musculus with 16 samples.

Results

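The molecules described here are 3′ fragments of transfer RNA (tRNA) that still carry the end of the mature tRNA, in small RNA of mouse sperm. A distinct read sequence of 18 to 44 nt was taken when it ended with the last 10 bases of 1 of 10 cytosolic tRNAs, followed by the complete terminal tail CCA or by its first 2 bases, CC. The tRNAs were Gly-GCC, Gly-CCC, Glu-CTC, Glu-TTC, Val-AAC, Val-CAC, Lys-CTT, Lys-TTT, His-GTG and SeC-TCA, the selenocysteine tRNA. The choice used sequence alone and no measured level. It gave 1937 of the 4230643 distinct sequences in 8 sperm libraries, and 52058 of the 103084122 reads (0.0505%). Val-AAC and Val-CAC share 1 end, and Glu-TTC has 2 ends that differ by 1 base, here called end 1 and end 2, so the members fall into 10 ends.

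Mature sperm came from the cauda epididymis of adult male mice on a C57BL/6NCrl background, either Dnmt2+/+ or Dnmt2-/-. The C57BL/6NCrl males were bought at 6 weeks of age. The Dnmt2-/- line (B6;129-Dnmt2tm1Bes/J) is a homozygous knockout and had been backcrossed to C57BL/6NCrl for over 5 generations. Mice of each genotype were fed a high-fat diet (HFD, D12492) or a normal diet (ND, Diet 1415), which gave 4 groups of 2 libraries. The labels do not say whether the 2 libraries of a group came from separate animals or pools, nor how long the diets lasted. Each p-value here is thus relative to the variation among libraries, whose origin may be purely technical. In such bulk samples, fewer cells of a type and less RNA per cell cannot be told apart.

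A tRNA receives its CCA tail after transcription, from an enzyme that adds the bases and can restore a damaged tail, and the last A carries the amino acid. The T loop near the 3′ end holds an adenosine at base 58 that is often methylated to 1-methyladenosine, a base on which reverse transcriptase stops or inserts a wrong base. Dnmt2 (Trdmt1) methylates the cytosine at base 38, just after the anticodon, in a few tRNAs that include Gly-GCC. Sperm are known for abundant tRNA fragments, most of them from the 5′ side, and the 3′ fragments that start in the T loop or near the anticodon are a smaller class.

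The most abundant member of each end is shown first, because the start, the tail and base 58 of these reads carry the results. Sequences run 5′ to 3′ as DNA letters. The capital inside the sequence is base 58, and the capitals at the end are the tail. Where base 58 varied, the same read with the other base follows.
Gly-GCC, 22 nt, T at base 58: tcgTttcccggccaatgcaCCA
Gly-GCC, 22 nt, A at base 58: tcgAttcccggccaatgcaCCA
Gly-CCC, 22 nt, T at base 58: tcgTttcccgggcggcgcaCCA
Gly-CCC, 22 nt, A at base 58: tcgAttcccgggcggcgcaCCA
Glu-TTC end 1, 36 nt: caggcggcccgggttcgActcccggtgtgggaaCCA
Glu-TTC end 2, 36 nt: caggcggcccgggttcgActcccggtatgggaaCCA
Glu-TTC end 2, 35 nt: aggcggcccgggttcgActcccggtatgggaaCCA
Glu-TTC end 2, 32 nt: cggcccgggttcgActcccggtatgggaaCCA
Glu-CTC, 38 nt, A at base 58: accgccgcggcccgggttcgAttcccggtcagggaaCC
Glu-CTC, 38 nt, T at base 58: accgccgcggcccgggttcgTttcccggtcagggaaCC
Val-AAC/CAC, 23 nt: ttcgAaaccgggcggaaacaCCA
Lys-TTT, 30 nt, A at base 58: tccagggttcaAgtccctgttcgggcgCCA
Lys-TTT, 30 nt, G at base 58: tccagggttcaGgtccctgttcgggcgCCA
Lys-CTT, 30 nt, A at base 58: tcgtgggttcgAgccccacgttgggcgCCA
Lys-CTT, 30 nt, T at base 58: tcgtgggttcgTgccccacgttgggcgCCA
SeC-TCA, 32 nt, T at base 58: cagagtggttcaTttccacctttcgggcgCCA
SeC-TCA, 32 nt, A at base 58: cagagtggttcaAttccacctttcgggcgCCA
His-GTG, 24 nt: gttcgAatccgagtcacggcaCCA

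The pair of glycine reads with the same base 58 share their first 11 bases and differ at 4 of 22 positions, all after that shared stretch. The 36-nt reads of the 2 Glu-TTC ends differ at 1 base, and those of Lys-TTT and Lys-CTT at 8 of 30. The tRNA names were derived from the reads, by joining each end to reads that hold an anticodon. For Val, Lys-TTT and His-GTG this join rested on pairing of the acceptor stem and an overlap of 5 or 6 bases, so these 3 names are less secure. RefSeq lists 14 genes of Gly-GCC on 7 chromosomes, 6 of Gly-CCC on 4, 12 of Glu-CTC on 8, 8 of Glu-TTC on 6 and 24 of Lys-CTT on 12 (assembly GRCm38.p6). It lists 8 genes of Val-AAC, 11 of Val-CAC, 10 of His-GTG and 2 of Lys-TTT. Copies with the same end, and other tRNAs that share it, cannot be told apart by these reads.

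Glu-TTC and Gly-GCC supplied most of the fragments. Glu-TTC had 14942 reads over both ends (28.7% of the member reads), Gly-GCC 14888 (28.6%) and Gly-CCC 10196 (19.6%). Glu-CTC followed with 4729 reads (9.08%) and Val-AAC/CAC with 3061 (5.88%). Lys-TTT had 1873 reads, Lys-CTT 1222, SeC-TCA 1094 and His-GTG 53. His-GTG is thus too thinly covered for shares by library.

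A set of 3 libraries stood apart in its base changes, and this touched the Glu-TTC and Glu-CTC fragments. In the first Dnmt2+/+ ND library and both Dnmt2-/- ND libraries, G was read as T at read base 29 in 364 to 389 of 10000 reads of abundant parent sequences, against 2.73 to 4.14 in the other libraries. These 3 are called set A here. Both Dnmt2+/+ HFD libraries and the first Dnmt2-/- HFD library (set B) had C read as G at read base 26 in 9.88 to 10.9 of 10000 reads, against 0.319 to 1.1 elsewhere. The second Dnmt2+/+ ND library and the second Dnmt2-/- HFD library (set C) had neither. The labels name no run or date, so what the sets are was not tested. Set A holds ND libraries alone and set B HFD libraries alone, so diet and set cannot be told apart except in set C, whose 2 libraries also differ in genotype.

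For the Glu-TTC read that starts 36 bases before the end of the tail, read base 29 lies inside the last 10 bases. In set A, 92.4% to 94.9% of the end 1 reads at this start and 94.3% to 96.7% of the end 2 reads had the G-to-T change and so fell outside the members. In the other 5 libraries this was at most 0.142%. The share in set A was far above the 364 to 389 of 10000 reads of parent sequences, and why was not tested. With up to 1 mismatch allowed in the last 10 bases, an alternative chosen after seeing the data, end 1 went from 5.1 to 17.8 counts per 1000000 reads of the library (CPM) in the first Dnmt2+/+ ND library. In the Dnmt2-/- ND libraries it went from 10.1 to 27.8 and from 10.9 to 39. The second Dnmt2+/+ ND library, in set C, went from 99.1 to 103 CPM. The exact rule therefore undercounts Glu-TTC in set A, and Glu-TTC values are given both ways where it matters.

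Smaller changes touched other starts. At read base 30, G was read as T in 28.2% to 45.9% of the end 1 reads and 48.3% to 63.2% of the end 2 reads concerned in set A, and in none elsewhere. At read base 31, A was read as C in 18.3% to 22.1% of the Glu-CTC reads concerned in set A, against at most 0.265% elsewhere. With up to 1 mismatch allowed, Glu-CTC went from 14 to 16.8, from 34.1 to 41.4 and from 21.8 to 25.1 CPM in set A.

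Start sites separated the ends into groups. Positions are given as the number of bases from the first base of the read to the end of a complete tail, so that both tails are counted together. Gly-GCC fragments started at 22 (base 55 of the tRNA, in the T loop) in 83.9% of reads, with 81.5% to 87.6% across the 8 libraries. Its next start, 1 base upstream at base 54, held 6.74%. Gly-CCC started at the same place in 86.8% of reads (79.9% to 91.5%). The glycine fragments therefore shared 1 dominant start, in every library.

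Gly-CCC also had reads from the anticodon loop: 2.97% started at 37, the third base after the anticodon, and 2.04% at 39, the first base after it. Val-AAC/CAC started in the same part of the T loop as the glycine tRNAs but less sharply. Its reads were spread over starts at 23 (39.3%), 22 (34.8%) and 24 (15.6%). Of the 53 His-GTG reads, 21 started at 24.

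The other ends started further upstream. Glu-TTC end 1 started at 36, the fourth base after the anticodon, in 51.4% of reads, at 32 in 10.5%, at 35 in 9.58% and at 37 in 9.03%. End 2 started at 36 in 40.4%, at 35 in 19% and at 32 in 12.3%. The share of end 1 reads at 36 was 50.9% to 59.5% in the 5 libraries of sets B and C, against 10.5% to 17.5% in set A. With up to 1 mismatch allowed it was 56.3% to 69.4% in set A and 50.4% to 57.8% in the others. With the changed reads counted, set A was no longer lower.

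Glu-CTC reads were spread over several starts: 39, the first base after the anticodon, held 38%, 34 held 15.1% and 37 held 13%. The share at 39 ranged from 25% in the first Dnmt2-/- HFD library to 48.7% in the first Dnmt2+/+ ND library, and from 26.1% to 51.6% in the same libraries with up to 1 mismatch allowed. Lys-CTT and Lys-TTT both started mainly at 30, the 11th base after the anticodon, with 66.2% and 65.4% of reads. In the second Dnmt2+/+ ND library only 33.5% of Lys-CTT reads did so, and 32.5% started at 37 instead. Among the libraries with more than 100 Lys-CTT reads, the other 4 had 59.3% to 78.2% at 30. SeC-TCA started at 32 in 54% of reads, ahead of 33 with 9.51% and 42 with 6.95%.

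Read lengths followed from these starts. Reads of 18 to 24 nt, which begin in or next to the T loop, were 96.2% of Gly-GCC, 92.1% of Gly-CCC and 96% of Val-AAC/CAC. They were 8.41% of SeC-TCA, 3.8% of Glu-TTC end 1, 1.24% of end 2, 1.28% of Lys-TTT, 0.423% of Glu-CTC and 0.245% of Lys-CTT. Over all members 52.3% of reads were this short, and the most frequent lengths were 22 nt (34.9%), 36 nt (11.5%) and 21 nt (10.3%). The files held reads of 18 to 44 nt, so shorter T-loop fragments were not seen.

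The share of 18 to 24 nt reads was 64.4% and 56.9% in the Dnmt2+/+ ND libraries, 43% and 46.9% in Dnmt2+/+ HFD, 50% and 67.9% in Dnmt2-/- ND and 46.5% and 60.4% in Dnmt2-/- HFD. ND libraries averaged 59.8% ± 8 and HFD libraries 49.2% ± 7.64 (SD, n = 4 each). The diets overlapped, and the difference of -10.6 percentage points was not past the threshold (two-sided exact permutation test, p = 0.11, adjusted over 6 tests 0.23). It turned to 2.48 when Glu-TTC was left out, and was -1.56 with up to 1 mismatch allowed (exact permutation p = 0.77) and -0.21 with each end weighted equally (exact permutation p = 0.83). Genotype differed by 3.38 points, with Dnmt2-/- higher (exact permutation p = 0.63, adjusted 0.75). Within set C the Dnmt2+/+ ND library had 56.9% and the Dnmt2-/- HFD library 60.4%.

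Base 38 was rarely inside these fragments, except in Glu-CTC. Among reads whose upstream bases could be placed, 2561 of 4522 Glu-CTC reads (56.6%) included it, by library 40.8% to 72.9%. The share was 2.4% for Gly-GCC, 4.13% for Gly-CCC, whose base 38 is T, 8.52% for Glu-TTC end 1 and 4% for end 2. It was 0.858% for Val-AAC/CAC, and no His-GTG or SeC-TCA read reached it. Over all ends 4363 of 51537 reads (8.47%) held base 38. Most Gly-GCC 3′ fragments therefore did not contain the base that Dnmt2 methylates in that tRNA.

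Among the members, which all end in CCA or CC, the complete tail was the more frequent at every end but Glu-CTC. It was found on 76% of Gly-GCC members (95% Wilson interval 75.3% to 76.7%), 75.4% of Gly-CCC, 78.6% of Val-AAC/CAC and 80% of SeC-TCA. It was on 66.8% of Glu-TTC end 1, 67.5% of end 2, 60.2% of Lys-TTT and 55.7% of Lys-CTT. Glu-CTC had 36.8% (35.4% to 38.1%), and the rest of its members ended in CC. Such intervals cover counting error only, since the reads carried no molecular identifiers and PCR copies of 1 molecule are counted apart.

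Reads that ended even earlier are outside the members but show how far the tails were shortened. Counting all reads that reached the last base of the tRNA, with or without a tail, 48.6% had the complete tail. By end this was 71.7% for Gly-GCC, 66.8% for Gly-CCC, 65.4% for Val-AAC/CAC and 56.7% for SeC-TCA. It was 48.6% for Glu-TTC end 2, 37.3% for end 1, 36.1% for Lys-TTT, 22.2% for Lys-CTT and 15.4% for Glu-CTC. Of all Glu-CTC reads that reached the last base of the tRNA, 54.8% (6180 reads) had a single C. For Glu-TTC this share was 39.9% at end 1 and 25.4% at end 2. Of Lys-CTT reads, 47.1% (1444) had no tail base at all. For Gly-GCC the complete tail, 2 bases, 1 base and none made up 71.7%, 22.7%, 3.39% and 2.22%.

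Tail completeness differed between starts of the same end. Glu-CTC reads starting at 34 had the complete tail in 69.5% of cases, those at 39 in 24.8% and those at 36 in 10.7%. Glu-TTC end 1 reads starting at 34 had it in 91%, those at 36 in 69.3% and those at 39 in 26.9%. Among Gly-CCC reads, 77.6% of those of 18 to 24 nt and 49.9% of those of 25 to 44 nt had it, and the short reads had more in 8 of 8 libraries. Gly-GCC showed 76.8% against 54.5%, with the short reads higher in all 6 libraries that had at least 10 reads of each kind. SeC-TCA ran the other way, with 73.9% in the short and 80.5% in the long reads, the short reads higher in 1 of 4. Short and long reads are fragments of the same RNA pool, so these are descriptions with no test.

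By library, the complete-tail share over all ends was 64.7% and 71.1% in Dnmt2+/+ ND, 68% and 72.1% in Dnmt2+/+ HFD, 50.5% and 61.8% in Dnmt2-/- ND and 73.5% and 69.4% in Dnmt2-/- HFD. The 3 lowest were those of set A. ND libraries averaged 62% ± 8.61 and HFD libraries 70.7% ± 2.52 (SD, n = 4 each), a difference of 8.73 points with overlapping groups (exact permutation p = 0.086, adjusted 0.23). Without set A, an alternative chosen after seeing the data, the difference was -0.34 points. Dnmt2-/- was 5.13 points below Dnmt2+/+, at 63.8% against 68.9% (exact permutation p = 0.43, adjusted 0.64).

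Glu-CTC varied widely between libraries. Its complete-tail share was 15.4% and 36% in the Dnmt2+/+ ND libraries, 42.9% and 46.2% in Dnmt2+/+ HFD, 12.7% and 19.9% in Dnmt2-/- ND and 52.2% and 33% in Dnmt2-/- HFD. The 3 libraries of set A were the lowest, and the diets overlapped because the second Dnmt2+/+ ND library lay above the second Dnmt2-/- HFD library. Those 2 libraries form set C. With up to 1 mismatch allowed, the share was 12.5% to 18.2% in set A and 32.9% to 52.5% elsewhere. For Lys-TTT all 4 HFD libraries were above all 4 ND libraries, with means of 64.9% ± 5.87 and 51.9% ± 7.61 (SD, n = 4 each). Apart from the thinly covered His-GTG, no other end separated the diets in this share. Within set C, Lys-TTT had 58.3% in the Dnmt2+/+ ND library and 61.9% in the Dnmt2-/- HFD library. Among Lys-TTT reads starting at 30, the main start, the diets overlapped. There the first Dnmt2+/+ ND library had 66%, the first Dnmt2+/+ HFD library 64.1% and the Dnmt2-/- HFD libraries 62.9% and 63.4%. The second Dnmt2+/+ HFD library had 76.7%. No test was run for single ends.

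Base 58 differed widely between the ends. Nearly all tRNA genes encode A there. SeC-TCA reads had another base in 76% of cases, Gly-CCC in 70.7%, Gly-GCC in 60.6% (8977 of 14808 reads) and Glu-CTC in 47.4%. In these 4 the other base was almost always T, in 69.9%, 70.1%, 60% and 46% of reads. Lys-TTT had 29.2%, mostly G (19.6%) with T at 9.08%, and Lys-CTT had 11.8%, with T at 7.12% and G at 4.42%. Glu-TTC reads nearly always kept A: 67 of 7652 reads at end 1 (0.876%) and 56 of 7287 at end 2 (0.768%) had another base. Val-AAC/CAC had 1.77% (53 of 2991) and His-GTG 3 of 51 reads.

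The neighbouring bases differed far less at the well-covered ends where base 58 often varied. Over all ends base 57 differed in 0.206% of reads and base 59 in 0.314%, against 38.8% at base 58. Reads with 3 or more upstream mismatches (521 over all ends) were left out at bases 57 and 59 but kept at base 58. Val-AAC/CAC had 31 such reads, beside 53 with another base than A at 58. Glu-TTC end 1 had 36, beside 67, so at these ends the bases cannot be compared closely. The highest value at base 59 was 2.68%, in Lys-CTT. At base 57 His-GTG had 6.25% of only 48 reads, about its share at base 58. Glu-TTC and Glu-CTC carry the same amino acid, yet stood at 0.876% and 0.768% against 47.4%. Whether a difference came from the gene or from a modified A was not tested.

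Gly-GCC was other than A in 65.9% and 63.3% of reads in the Dnmt2+/+ ND libraries, 59.8% and 62.1% in Dnmt2+/+ HFD, 69.9% and 62.7% in Dnmt2-/- ND and 49.9% and 59.4% in Dnmt2-/- HFD. All 4 HFD libraries were below all 4 ND libraries, with means of 57.8% ± 5.42 and 65.4% ± 3.25 (SD, n = 4 each). No other of the 10 ends separated the diets at base 58. Single ends were not tested here either, and how often such shares separate by chance was not counted. Within set C the Dnmt2+/+ ND library had 63.3% and the Dnmt2-/- HFD library 59.4%. Among Gly-GCC reads starting at 22, the dominant start, the diets overlapped. There the second Dnmt2+/+ HFD library had 64.1% and the second Dnmt2-/- ND library 63.7%. They also overlapped among reads with the complete tail, at 65.6% and 65.4% in the same libraries. Gly-CCC ranged from 61% in the first Dnmt2-/- HFD library to 79.2% in the first Dnmt2-/- ND library, and its diets overlapped. The first Dnmt2-/- HFD library was also the lowest for Gly-GCC and, at 38%, for Glu-CTC.

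Glu-CTC ranged from 38% to 53.5% and SeC-TCA from 65% to 84.7%, with overlapping diets and genotypes. The SeC-TCA values were 73.6% and 73.5% in Dnmt2+/+ ND and 81.6% and 84.7% in Dnmt2+/+ HFD. In the Dnmt2-/- groups they were 83.1% and 65% on ND and 67.6% and 71.4% on HFD. Lys-TTT had 32% and 39.1% in Dnmt2+/+ ND, 21.6% and 24.6% in Dnmt2+/+ HFD, 38.7% and 32.5% in Dnmt2-/- ND and 23.1% and 34.6% in Dnmt2-/- HFD. One HFD library, the second Dnmt2-/- one, lay among the ND values of Lys-TTT.

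Over all ends, base 58 was other than A in 51.2% and 40.7% of reads in Dnmt2+/+ ND, 34.1% and 38.8% in Dnmt2+/+ HFD, 53.4% and 50.2% in Dnmt2-/- ND and 27.9% and 40.1% in Dnmt2-/- HFD. The ND mean was 48.9% ± 5.63 and the HFD mean 35.2% ± 5.5 (SD, n = 4 each). The diets did not overlap, and the difference of -13.7 points had the smallest p that 4 against 4 libraries can give (two-sided exact permutation p = 0.029), which adjusted over 6 tests was 0.17 and missed the threshold of 0.05. The pooled share depends on the mix of tRNAs. Without Glu-TTC, whose A-bearing reads set A had partly lost, the difference was -4.98 points (exact permutation p = 0.2), and with each end weighted equally it was -2.86 (exact permutation p = 0.4). With up to 1 mismatch in the last 10 bases, which brings the changed Glu-TTC reads back, it was -6.98, again at the smallest possible exact permutation p of 0.029 (adjusted 0.17). Within set C the values were 40.7% for ND and 40.1% for HFD. Dnmt2-/- and Dnmt2+/+ averaged 42.9% and 41.2%, a difference of 1.72 points (exact permutation p = 0.8).

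Base 58 differed between the tails at some ends. Among Gly-GCC members with the complete tail, 63.7% had a base other than A, against 51% of those ending in CC, and this held in 8 of 8 libraries. Lys-CTT showed 14.1% against 8.87%, again in 8 of 8, and Glu-CTC 51.3% against 45.2% in 7 of 8. Some Lys-CTT classes were thin. Only 11 of its reads ended in CC in the first Dnmt2+/+ ND library. In the first Dnmt2-/- ND library 15 had the complete tail. Gly-CCC had 71.3% against 68.9%, higher in only 4 of 8. Other ends had the lower share with the complete tail: SeC-TCA 75.5% against 78.2% and Lys-TTT 28.5% against 30.1%, each higher in 3 of 8, Val-AAC/CAC 1.28% against 3.51% (4 of 8) and Glu-TTC end 1 0.685% against 1.26% (2 of 8). Glu-TTC end 2 had 0.732% against 0.845%, higher in 4 of 8. The glycine ends also differed by length, in opposite directions. Gly-CCC reads of 25 to 44 nt had 85.9% and reads of 18 to 24 nt 69.4%, with the short reads higher in only 1 of 8. Gly-GCC had 52.7% in the long and 60.9% in the short reads, with the short reads higher in 5 of 6. Gly-GCC reads starting at 22 had another base in 62.3% of cases and those starting at 23 in 42%.

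The level of the fragments varied several-fold between libraries. Summed over all ends it was 118 and 657 CPM in the Dnmt2+/+ ND libraries, 1082 and 874 in Dnmt2+/+ HFD, 153 and 231 in Dnmt2-/- ND and 620 and 705 in Dnmt2-/- HFD. HFD averaged 820 CPM ± 204 and ND 290 CPM ± 249 (SD, n = 4 each), and the diets overlapped because the second Dnmt2+/+ ND library was above the first Dnmt2-/- HFD one. The 3 libraries of set A were the 3 lowest. These sums follow the exact rule. Reads with 1 mismatch in the last 10 bases held a further 35.5, 54.7 and 75.7 CPM in set A, beside its 118, 153 and 231. In the other libraries they held 30.8 to 50.7 CPM. Without set A the difference went from 530 to 163 CPM, with 1 ND library left. Dnmt2+/+ averaged 683 ± 414 and Dnmt2-/- 427 ± 275 CPM (SD, n = 4 each), a difference smaller than either spread. The fragments were 0.0118% to 0.108% of a library.

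Gly-GCC had 41.7 and 209 CPM in Dnmt2+/+ ND, 239 and 218 in Dnmt2+/+ HFD, 39.4 and 92.3 in Dnmt2-/- ND and 145 and 251 in Dnmt2-/- HFD. Gly-CCC had 25.3 and 130, 201 and 174, 33.5 and 53.3, and 112 and 136 CPM in the same groups. For both glycine tRNAs the set A libraries were lowest, and the second Dnmt2+/+ ND library lay among the HFD libraries.

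Glu-TTC end 2 had 5.57 and 72.1 CPM in Dnmt2+/+ ND, 194 and 136 in Dnmt2+/+ HFD, 10.6 and 15.2 in Dnmt2-/- ND and 113 and 98.5 in Dnmt2-/- HFD. Lys-CTT had 1.68 and 14 CPM in Dnmt2+/+ ND, 35.2 and 17.9 in Dnmt2+/+ HFD, 2.58 and 4.56 in Dnmt2-/- ND and 16.7 and 14.2 in Dnmt2-/- HFD. Lys-TTT had 6.73 and 17.2 CPM in Dnmt2+/+ ND, 46.8 and 22.4 in Dnmt2+/+ HFD, 8.04 and 15.2 in Dnmt2-/- ND and 20.2 and 21.5 in Dnmt2-/- HFD. For these 3 of the 10 ends, all 4 HFD libraries were above all 4 ND libraries. The same held for 10.7% of all 2514 groups of reads that share their last 12 bases and have at least 1000 reads. The narrowest gap was that of Lys-CTT, where the second Dnmt2+/+ ND library had 14 and the second Dnmt2-/- HFD library 14.2 CPM. Glu-TTC end 2 still did not overlap with up to 1 mismatch allowed, with at most 73.6 CPM on ND and at least 101 on HFD. No end was lower in all HFD libraries, which held for 1.55% of those groups of reads. No end separated the genotypes, as 0.199% of those groups did with Dnmt2-/- higher and 0.796% with Dnmt2-/- lower.

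Glu-CTC had 14 and 48.1 CPM in Dnmt2+/+ ND, 110 and 101 in Dnmt2+/+ HFD, 34.1 and 21.8 in Dnmt2-/- ND and 43.5 and 34.4 in Dnmt2-/- HFD. Its Dnmt2+/+ HFD libraries were the 2 highest, and the Dnmt2-/- HFD libraries lay below the second Dnmt2+/+ ND library. SeC-TCA had 7.78 and 12.2, 18 and 18.8, 5.46 and 6.08, and 10.3 and 11 CPM in the groups in the same order. Val-AAC/CAC averaged 43.5 CPM ± 6.66 in Dnmt2+/+ HFD and 40.6 ± 5.34 in Dnmt2-/- HFD, against 10.1 ± 1.68 in Dnmt2-/- ND (SD, n = 2 each). In Dnmt2+/+ ND it had 10.1 and 54.4 CPM, so the highest and the second lowest library were replicates. His-GTG never exceeded 0.97 CPM, where 3 reads are worth 0.158 to 0.295 CPM.

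Marker microRNAs of other cells also differed between the libraries. The epididymal epithelium list (miR-200b and miR-200c, both detected) summed to 140 to 1465 CPM in the ND libraries and 448 to 3015 CPM in the HFD libraries. The 3 libraries of set A had 140 to 316 CPM. The order did not follow the fragments throughout: the second Dnmt2-/- HFD library had 448 CPM of the list and the first 2227, with fragment levels of 705 and 620 CPM. The blood list (miR-146a and miR-150) summed to 0.893 to 26.9 CPM on ND and 27.4 to 85.7 CPM on HFD, all of it from miR-146a-5p, with miR-146a-3p and miR-150-3p at 0 and miR-150-5p not looked up. The muscle list, of which only miR-206 could be looked up, reached 0.315 CPM on ND and 0.752 to 5.12 CPM on HFD, with miR-206-5p at 0. The germ cell list (arms of miR-34c, miR-449a and miR-881) summed to 481 to 2029 CPM on ND and 397 to 1149 CPM on HFD, with miR-449a-3p and miR-881-5p at 0. Almost all of that sum was miR-881-3p, and miR-34c-5p was not looked up. The part of other cells in the fragment levels was not tested.

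The 3′ fragments were a small share of what most of these tRNAs left in sperm. Reads starting at the first base of Glu-CTC outnumbered its 3′ members 5792 to 1 (27392736 against 4729), and those of Gly-GCC 1012 to 1 (15070138 against 14888). For Lys-CTT the ratio was 132, for Glu-TTC 49.7 at end 1 and 30.6 at end 2, and for SeC-TCA 14.6. Gly-CCC had the lowest pooled ratio, with 9507 5′ reads and 10196 3′ reads, a ratio of 0.932. By library the Gly-CCC ratio ran from 0.185 to 3.55 and was above 1 in 2 of the 8 libraries, the second Dnmt2+/+ ND (2.09) and the first Dnmt2-/- ND (3.55). That of Glu-CTC ran from 1640 to 27051 and that of Gly-GCC from 452 to 4625. With their less secure joins, Val-AAC/CAC had a pooled ratio of 260, Lys-TTT of 14.6 and His-GTG of 4141.

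Single sequences were tested with edgeR's quasi-likelihood test over all distinct sequences that passed its filter on low counts. Of the 1937 members, 108 passed, which held 87.2% of the member reads. In each of the 4 comparisons 0 of the 108 were called at an adjusted p under 0.05, against 0% of all 50460 sequences tested. At an unadjusted p under 0.05 there were 10 members (7734 of all sequences) for diet in Dnmt2+/+ and 14 (6807) for diet in Dnmt2-/-. For genotype there were 7 (1725) on ND and 1 (2167) on HFD. DESeq2 called 5 of 72 members higher on HFD in Dnmt2-/-, against 3.56% of all 28937 sequences it tested, in either direction. It called 0 members in each of the other comparisons, against 3.69% of all sequences for diet in Dnmt2+/+, 0.265% for genotype on ND and 0.279% for genotype on HFD.

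Single libraries decided some calls. With the first Dnmt2+/+ ND library left out, 5 of 150 members were called lower in Dnmt2-/- on ND, against 2.12% of all sequences. With the second left out, 9 of 142 were called higher on HFD in Dnmt2+/+, against 8.72% of all sequences, and 1 of 19 groups sharing their last 12 bases, against 4.45% of all groups. Each of these fits leaves 1 Dnmt2+/+ ND library, which is assumed to vary like the libraries of the other groups. With no filter on low counts, 4 of 951 members were called for diet in Dnmt2-/- and 1 for genotype on ND, against 0.114% and 0.00776% of all sequences.

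The 108 tested members had a median log2 fold change of 1.16 for diet in Dnmt2+/+ and 1.51 for diet in Dnmt2-/-, where all sequences had -0.15 and 0.12. For genotype the medians were -0.62 on ND and -0.38 on HFD, where all sequences had -0.05 and 0. Of the 108, 20 were of Glu-TTC end 1, 15 of end 2 and 27 of Glu-CTC. Exact reads of these ends were partly lost to the base changes in set A, which holds ND libraries alone. The part of this loss in the medians was not tested. With the set as a term in the fit, the median was 0.53 for diet in Dnmt2+/+ and -0.90 for diet in Dnmt2-/-. For genotype it was then 0.92 on ND and -0.33 on HFD. The direction for diet in Dnmt2-/- and for genotype on ND turned in this fit. Its term for set A rests on the first against the second Dnmt2+/+ ND library, since no other group spans sets A and C. That for set B rests on the first against the second Dnmt2-/- HFD library. For genotype on ND the fit thus compares Dnmt2-/- with the first Dnmt2+/+ ND library alone. It cannot tell the set from single libraries. Summed by their last 12 bases, 19 groups of members were tested among 36474 groups, and 0 were called in any comparison, against 0% of all groups. At an unadjusted p under 0.05 there were 3 for diet in Dnmt2-/- and 0 in each of the others.

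The member with the lowest p in each comparison was taken for a closer description. The 4 are printed with base 58 and the tail in capitals.
Diet in Dnmt2+/+, Glu-TTC end 2, 35 nt: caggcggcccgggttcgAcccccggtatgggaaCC
Diet in Dnmt2-/-, Glu-TTC end 2, 37 nt: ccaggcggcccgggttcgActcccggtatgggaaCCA
Genotype on ND, Glu-TTC end 1, 35 nt: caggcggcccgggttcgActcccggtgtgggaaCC
Genotype on HFD, Glu-CTC, 36 nt: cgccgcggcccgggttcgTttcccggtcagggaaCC

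The 37-nt Glu-TTC read had 0.303 and 0.228 CPM in Dnmt2-/- ND and 9.02 and 4.58 in Dnmt2-/- HFD, and 0.578 and 1.83 against 12 and 5.8 in the Dnmt2+/+ groups. Its log2 fold change in Dnmt2-/- was 4.18 (SE 1.11, edgeR adjusted p = 0.26). All 4 HFD libraries exceeded all 4 ND libraries, but the read was picked by its p for diet, which favours such a separation. This read starts 37 bases before the end of the tail. In set A, 48.3% to 63.2% of end 2 reads at that start had the G-to-T change at read base 30. The lowest libraries of the 37-nt read were those of set A. The 35-nt read of end 2 was at 0 in all 4 ND libraries and had 0.874 and 1.77 CPM in Dnmt2+/+ HFD and 0.776 and 0.301 in Dnmt2-/- HFD (edgeR adjusted p = 0.28 in Dnmt2+/+). Values this low are near the worth of 3 reads.

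The 35-nt read of end 1 had 0.0525 and 19.6 CPM in Dnmt2+/+ ND and 0.0759 and 0.076 in Dnmt2-/- ND, with 14.6 to 25.5 CPM on HFD (edgeR adjusted p = 1). It starts 36 bases before the end of the tail, and its 3 low libraries are those of set A, where the base-29 change removed reads of this start. The Glu-CTC read had 1.65 and 4.03 CPM in Dnmt2+/+ HFD and 0.291 and 0.225 in Dnmt2-/- HFD, a log2 fold change of -3.08 (SE 1.19, edgeR adjusted p = 1). On ND it had 0.315 and 1.17 CPM in Dnmt2+/+ and 0.986 and 0.836 in Dnmt2-/-, so the genotypes overlapped there.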

How the data were processed

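Small RNA of 8 sperm libraries was analysed; the 8 libraries of 3T3 cells, another assay, were not analysed here. Per the labels' protocols, Trizol served for extraction and Illumina's TruSeq small RNA kit for library construction. The deposited values are counts of reads per distinct sequence, with no header; adapter trimming and any aligner are not given in the sources used here. Libraries held 10165031 to 19030258 reads. The last 10 bases of each tRNA were derived from the reads (overlap of 16 bases, or pairing of the 7 acceptor bases), and RefSeq gave gene numbers and microRNA sequences. CPM was taken over all reads of a library. Shares were compared with exact permutation tests over libraries (adjusted over 6 tests). edgeR 4.0.16 in R 4.3.3 tested all sequences kept by filterByExpr (smallest count 10, total 15) with TMM and Benjamini-Hochberg adjustment; DESeq2 1.42.0, library totals, no filter, a replicate block, the set as a term and leaving out each library were alternatives. Scripts used Python 3.11.15 and were tested on simulated data. The members, lists and sequences were chosen with earlier results of these data known. By rule the text names every tRNA, the most abundant member of each end, further starts with 10% of reads for the most abundant tRNAs, and the member with the lowest p of each comparison; the partner reads with another base 58 were added after their values were seen. Replicates of a group differed beyond counting noise (chi-square per degree of freedom 4.51 to 13.0) and were kept apart.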

Additional observations from a re-analysis of the deposited data

Results flagged for a closer look

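In 12 of the 124 groups of 4 libraries looked at, 1 library lay far from the other 3, and none of these was tested further. For independent groups the rule used would flag about 1 in 20 by chance. The groups here reuse the same 8 libraries, so the 12 cannot be set against that rate. Levels stood apart in 5. For Gly-GCC the first Dnmt2+/+ ND library was lowest among the Dnmt2+/+ libraries at 41.7 CPM. The second Dnmt2+/+ ND library was highest among the ND libraries for Glu-TTC end 1 (99.1 CPM), Glu-TTC end 2 (72.1 CPM) and Val-AAC/CAC (54.4 CPM). For Lys-TTT the first Dnmt2+/+ HFD library was highest on HFD at 46.8 CPM.

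Tails stood apart in 3. The first Dnmt2-/- ND library had the lowest complete-tail share for Glu-TTC end 1 among the Dnmt2-/- libraries (47.4%) and for end 2 among the ND libraries (58.6%). The second Dnmt2+/+ HFD library was highest on HFD for Lys-TTT, with 73.7%.

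Base 58 stood apart in 4. For Glu-TTC end 1 the first Dnmt2+/+ ND library had another base than A in 10.3% of reads (10 of 97), the highest both on ND and among the Dnmt2+/+ libraries. For Val-AAC/CAC the first Dnmt2-/- ND library had 10% on ND, and the second Dnmt2+/+ HFD library had 3.09% among the Dnmt2+/+ libraries. In the order named, 10, 11 and 12 reads had another base than A. The same ends and libraries had 7, 9 and 12 reads with 3 or more upstream mismatches. Whether these were the same reads was not tested.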

How the results depend on the processing

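Counts of called members moved in some settings. DESeq2 called 5 of 72 (1029 of all 28937 sequences) and the fit with no filter 4 of 951 (1653 of all 1455378) for diet in Dnmt2-/-, and no filter called 1 (113 of all) for genotype on ND, against 0. Leaving out each library in turn gave 0 to 9 called members for diet in Dnmt2+/+, 0 to 5 for genotype on ND and 0 to 1 groups sharing their last 12 bases for diet in Dnmt2+/+; the 9 (6701 of all 76843 sequences called) and the 1 (2458 of all 55228 groups) came without the second Dnmt2+/+ ND library, the 5 (1662 of all 78286) without the first. In such fits the library left alone in its group is assumed to vary like the other groups. The other 5 counts were 0 in each such fit. The genotype difference at base 58 (1.72 points) turned to -0.71 without Glu-TTC, -0.22 with up to 1 mismatch, -0.24 with ends weighted equally and -3.85 without set A, and ranged from -1.77 to 6.72 with 1 library left out. The diet difference in 18 to 24 nt reads turned to 2.48 without Glu-TTC, and that by genotype ranged from -0.53 to 7.25 with 1 library left out. Without set A the complete-tail differences turned to -0.34 for diet and 1.1 for genotype, and the diet difference in summed level was 163 CPM. The settings without set A, with 1 mismatch and with equal weights were chosen after seeing the data. Why these values turned was not tested beyond the base-29 change.

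With 1 library left out, the diet difference ranged from 4.89 to 11.8 points for the complete tail, from -16.4 to -11.2 for base 58, from -14.3 to -7.9 for 18 to 24 nt reads and from 443 to 653 CPM for the summed level. The genotype difference ranged from -8.38 to -0.69 points for the complete tail and from -444 to -123 CPM for the summed level. With the replicate block 0 members were called in each comparison, as without it, and the median log2 fold changes were 1.34, 1.63, -0.55 and -0.36. The replicate numbers share only a number: deviations of same-numbered libraries correlated at -0.23 to 0.16 between groups. At these depths a single read is the unit for most members, and 3 reads are worth up to 0.295 CPM.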
